A study of Mus musculus with 2 samples.

Results

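Cells with Ucp1 RNA were described among the cells of aneurysmal mouse aorta. A droplet barcode was kept when it held at least 200 genes and no more than 20% of its RNA molecules (unique molecular identifiers, UMIs) came from mitochondrial genes. Ucp1 cells were chosen by measured values: at least 2 UMIs of Ucp1, and Ucp1 plus Cidea at 0.05% or more of the cell's UMIs. They numbered 197 of 16521 kept cells, of 17274 barcodes in all. The cells set beside them, called other adipocyte-like cells, had Adipoq plus Plin1 plus Cidec at 0.1% or more of their UMIs and were not Ucp1 cells. There were 55 in the inhibitor library, against 652 in the DMSO library.

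The mice of both libraries lacked Apoe (strain Apoe-/-), were 12 weeks of age and had aneurysms of the abdominal aorta after angiotensin II. One group received an inhibitor and the other DMSO, the usual solvent, and each group was 1 library. The title initials were read as these groups from the design text, and the sources used here give neither the inhibitor's name and dose nor the number of animals per library. Segments of aorta were digested with enzymes, with no sorting step stated, and whether fat on the vessel was removed is not stated. The inhibitor library held 79648307 UMIs and the DMSO library 101139161, with medians of 9092 and 8003.5 UMIs in kept cells. With 1 library per group no difference between groups was tested, and effects of the treatment, the animals and the dissection cannot be told apart. All 95% intervals below (exact binomial for shares and ratios, Poisson for levels) cover counting error only.

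Brown adipocytes burn fatty acids to make heat. Ucp1, the uncoupling protein of the inner mitochondrial membrane, lets protons return to the matrix without making ATP, and the cell therefore needs a large respiratory chain, fatty acid oxidation and fuel supply. Noradrenaline acts through beta-adrenergic receptors and cyclic AMP to release stored fat and to induce Ucp1, with the coactivator Ppargc1a. White adipocytes store triglyceride in a single droplet and secrete adipokines such as adiponectin and adipsin. The fat around the thoracic aorta of mice is known to resemble brown fat, and that around the abdominal aorta is closer to white fat.

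In the inhibitor library 16 of 7857 kept cells were Ucp1 cells (0.204%, interval 0.116 to 0.330), against 181 of 8664 in the DMSO library (2.09%, 1.80 to 2.41). The other adipocyte-like cells differed in the same direction, at 0.700% of kept cells with the inhibitor and 7.53% with DMSO. The share of Ucp1 cells among all adipocyte-like cells had overlapping intervals in both libraries: 16 of 71 in the inhibitor library (22.5%, 13.5 to 34) and 181 of 833 in the DMSO library (21.7%, 19.0 to 24.7). Among cells with at least 1000 genes that met the adipocyte minimum it was 14 of 59 in the inhibitor library (23.7%, 13.6 to 36.6) and 71 of 594 in the DMSO library (12.0%, 9.45 to 14.8), so how close the shares lay depended on which cells were counted. The 2 matrices had 16 barcodes in common, and none of them was a Ucp1 cell.

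The inhibitor Ucp1 cells held 2 to 109 UMIs of Ucp1, with a median of 33.5, and Ucp1 made up 0.133% of a cell's UMIs at the median. The DMSO Ucp1 cells held 2 to 357 UMIs of Ucp1, with a median of 9 and a median share of 0.206%. The counts were lower in the DMSO cells and the shares higher, and the DMSO cells included small barcodes. Among Ucp1 cells with at least 1000 genes the median share was 0.133% with the inhibitor and 0.107% with DMSO, so the direction turned. In the DMSO library the lowest Ucp1 plus Cidea share inside the limit was 0.0579% and the highest outside, among cells with enough Ucp1 UMIs, was 0.0468%; in the inhibitor library these were 0.0575% and 0.0379%. At the UMI limit, 24 DMSO members held exactly 2 Ucp1 UMIs, and 51 further DMSO cells met the share with 1 Ucp1 UMI.

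**Figure D1:**
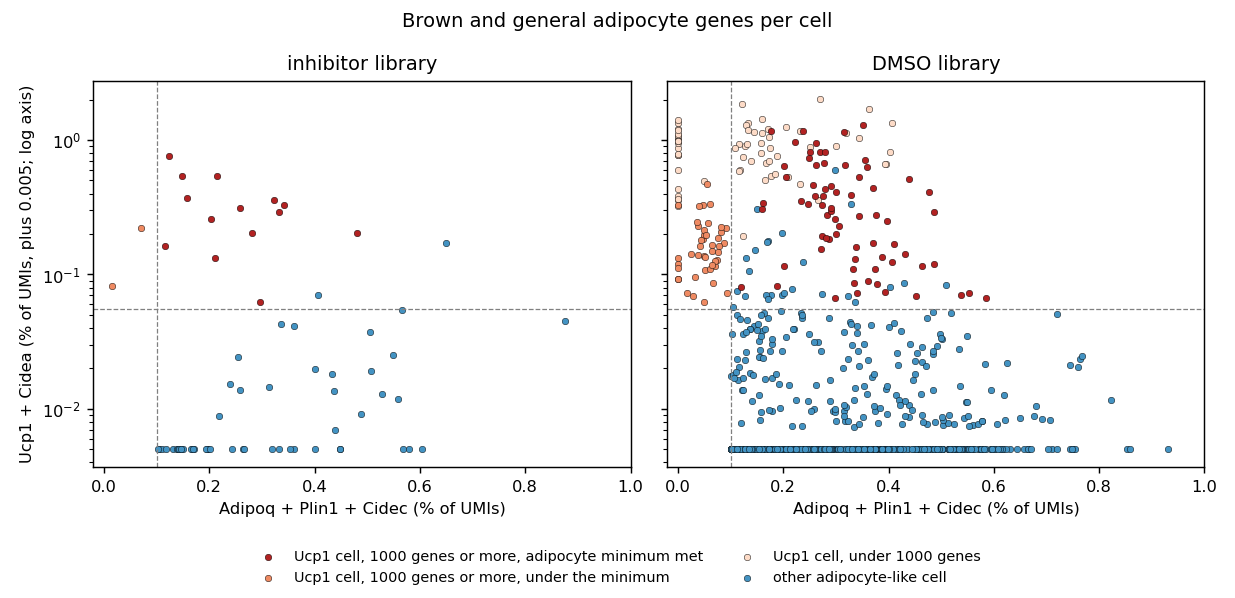
Each point is 1 cell of the inhibitor library (left) or the DMSO library (right). The x axis is Adipoq plus Plin1 plus Cidec and the y axis is Ucp1 plus Cidea, both as a percentage of the cell's UMIs, the y axis on a log scale after adding 0.005; dashed lines are the minimum of each rule, and many of the 181 DMSO Ucp1 cells lie left of the adipocyte line whereas 14 of the 16 inhibitor cells lie right of it.

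Ucp1 RNA was also found outside these cells. Of kept DMSO cells outside both sets, 3.64% held a Ucp1 UMI at a median depth of 7800 UMIs. In cells with T cell markers, which do not make Ucp1, the share was 3.11% at a median of 4008 UMIs. The other adipocyte-like DMSO cells held one in 15.3% of cases at a median of 15465 UMIs, above that background. Outside both sets 0.244% of inhibitor cells held a Ucp1 UMI. The part of this background in the small barcodes of the set was not tested.

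The 181 DMSO Ucp1 cells were of 3 kinds. In 71 cells at least 1000 genes were detected and the adipocyte minimum of 0.1% was met. These 71 held 77.7% of the members' UMIs, with a median of 34801 UMIs. Another 44 cells had at least 1000 genes but too little Adipoq, Plin1 and Cidec to meet that minimum. The remaining 66 had under 1000 genes, a median of 731 UMIs and 1.58% of the members' UMIs. In the 71 cells Ucp1 stood at 2048 counts per 1000000 UMIs (CPM) and Cidea at 1667 CPM, but these genes chose the cells, so their levels are no check of the label of brown adipocyte-like cells. Of genes the rule did not use, Scd1, which the other adipocyte-like cells also held at 16813 CPM, was at 35950 CPM in the 71 cells, and Cox7a1 was at 894 CPM. In the 44 cells Scd1 was at 9008 CPM and Cox7a1 at 309 CPM, and RNA of other cell types was present: Dcn, a fibroblast proteoglycan, was at 4336 CPM, against 286 CPM in the 71 cells. Acta2, smooth muscle actin, was at 1963 CPM in the 44 cells and at 280 CPM in the 71 cells. Cdh5, an endothelial cadherin, was at 341 CPM in the 44 cells and at 7.29 CPM in the 71 cells. Since low Adipoq, Plin1 and Cidec set these 44 apart, those genes are no check of the label in them, and they are called Ucp1 cells under the minimum.

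**Figure D2:**
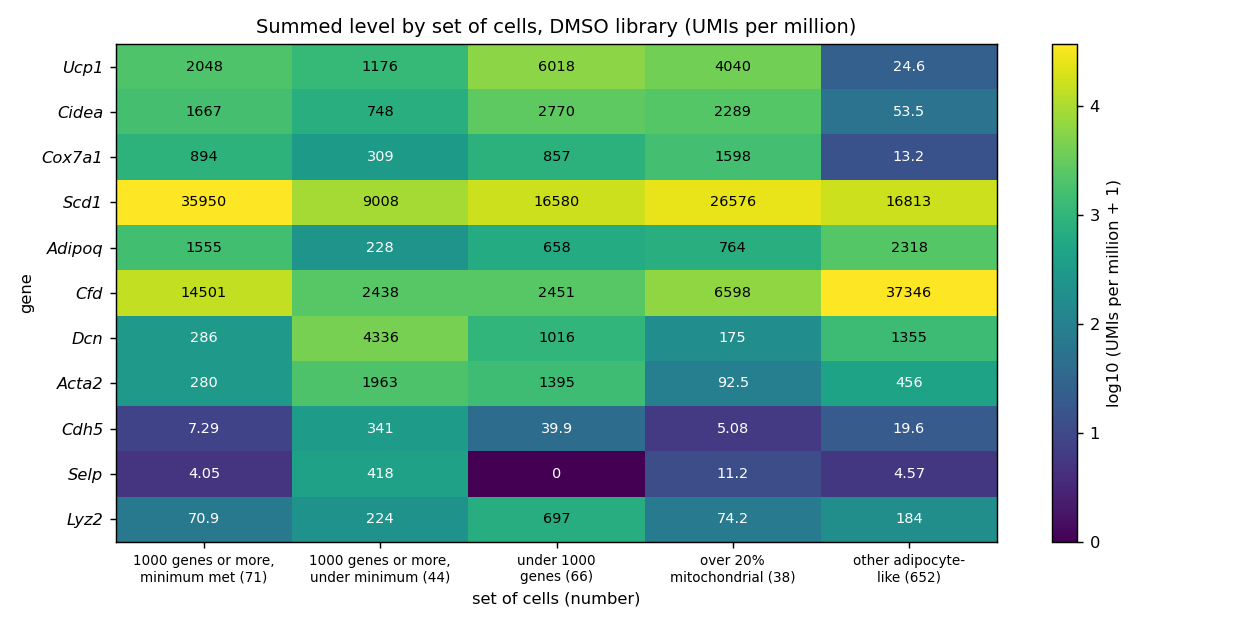
Heat map of the summed CPM (colour on a log10 scale after adding 1, value printed) for 11 genes (rows) in 5 sets of DMSO cells (columns): the 71 Ucp1 cells that met the adipocyte minimum, the 44 under it, the 66 with under 1000 genes, the 38 barcodes removed by the mitochondrial limit and the 652 other adipocyte-like cells. Dcn and Acta2 peak in the 44 cells, and Ucp1 is at 6018 CPM in the 66 smallest and at 4040 CPM in the 38 removed barcodes.

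Many of these barcodes were nearly the same profile. Pairs were compared over genes with at least 10 UMIs in the pair, and the median chi-square of the counts was divided by its value under counting error alone, so that 1 means that only sampling separates the pair. Of 108 DMSO Ucp1 cells with at least 5000 UMIs, 55 fell into 12 groups joined at a value of 1.6 or less, and 3 groups held 14, 12 and 11 cells. The median pair value was 1.25, 1.33 and 1.18 inside these 3 groups and 3.75 over all pairs of Ucp1 cells. Of the 37 cells in the 3 groups, 36 were under the adipocyte minimum. The group of 14 had Selp, an adhesion molecule of activated endothelium, at 1327 CPM and Apod, a lipid carrier, at 1431 CPM. The group of 12 had Pi16, a marker of adventitial fibroblasts, at 1531 CPM and Lum, a collagen-binding proteoglycan, at 1953 CPM. The group of 11 had Gpihbp1, the lipoprotein lipase anchor of capillaries, at 748 CPM. Inside each of the 3 groups the barcodes differed at a median of 12 of 16 letters. Such groups were also present among the other adipocyte-like cells, where 122 of 435 cells fell into 31 groups. Among the 16 inhibitor Ucp1 cells there was 1 group, of 2 cells. The cause of this likeness was not tested. Counting each group once, by its barcode with the most UMIs, left 138 of the 181 DMSO cells. Values counted this way are given beside some results below. Only the Ucp1 cells were reduced in this way, and the other adipocyte-like cells were left whole.

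The mitochondrial limit removed Ucp1 cells more often than other cells of the DMSO library. It removed 38 of 219 barcodes that met the Ucp1 rule (17.4%, interval 12.6 to 23.0). It removed 2.40% of barcodes that met the rule for other adipocyte-like cells and 4.73% of all remaining barcodes. It removed 1 of 17 in the inhibitor library. The 38 removed DMSO barcodes had a median of 27432 UMIs and Cox7a1 at 1598 CPM, and 27.4% of their UMIs were mitochondrial at the median. The share of Ucp1 cells given above is therefore that of cells under the limit.

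For the gene by gene description, UMIs were summed over the Ucp1 cells and over the other adipocyte-like cells of the same library, and levels are CPM of these sums. A gene was examined when it had at least 20 CPM in 1 set and 20 UMIs over both, and was called higher at a ratio of 2 or more and lower at 0.5 or less. In the DMSO library 409 of 6216 genes were higher in Ucp1 cells (6.58%) and 261 were lower (4.2%). In the 71 cells alone 404 of 6066 were higher (6.66%) and 681 lower (11.2%). In the inhibitor library 411 of 6045 were higher (6.8%) and 549 lower (9.08%). Of the 409 genes higher in DMSO, 288 were examined in the inhibitor library, where 170 were again higher, none was lower and 278 had a log2 ratio above 0. Of the 261 lower genes 214 were examined, of which 134 were again lower, none was higher and 202 had a log2 ratio below 0. Ucp1 and Cidea chose the cells, and genes that go with them in a cell follow in part from that choice, so these counts are a description.

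Ucp1 lies on chromosome 8 at 83290352 to 83298452, Cox7a1 on chromosome 7 at 30184144 to 30186078 and Cox8b on chromosome 7 at 140898945 to 140900446 (GENCODE annotation of GRCm38). The 250 bases before RefSeq's start of these genes, which differs by some bases from GENCODE's for Ucp1 and Cox7a1, are shown, because all 3 were high together in Ucp1 cells and Ucp1 is known to be induced through cyclic AMP and nuclear receptors. Sequences are from RefSeq (GRCm38.p6), 5′ to 3′ on the strand of the gene: Ucp1 on the plus strand at chr8:83290098-83290347, Cox7a1 on the plus strand at chr7:30183921-30184170 and Cox8b on the minus strand at chr7:140900447-140900696. Capitals mark TGACG, the core of the cyclic AMP response element, and AGGTCA, the nuclear receptor hexamer, searched on both strands. Neither motif contains the other.
Ucp1: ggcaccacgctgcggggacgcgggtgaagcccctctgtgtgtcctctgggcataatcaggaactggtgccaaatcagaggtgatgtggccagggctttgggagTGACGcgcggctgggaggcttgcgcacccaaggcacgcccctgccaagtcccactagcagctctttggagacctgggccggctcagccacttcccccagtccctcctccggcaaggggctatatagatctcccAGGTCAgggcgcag
Cox7a1: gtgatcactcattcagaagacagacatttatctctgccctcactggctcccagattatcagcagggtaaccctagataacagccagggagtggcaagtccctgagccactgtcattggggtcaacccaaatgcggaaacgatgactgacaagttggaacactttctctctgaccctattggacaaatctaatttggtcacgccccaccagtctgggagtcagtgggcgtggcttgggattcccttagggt
Cox8b: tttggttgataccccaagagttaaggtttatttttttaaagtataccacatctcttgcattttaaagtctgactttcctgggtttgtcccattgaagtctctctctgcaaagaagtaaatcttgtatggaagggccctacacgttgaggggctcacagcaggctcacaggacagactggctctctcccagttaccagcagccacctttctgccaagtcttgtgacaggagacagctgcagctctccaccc
The Ucp1 window held 1 match of each motif, and the Cox7a1 and Cox8b windows held none. Among 32851 promoters of the same length 17.8% held TGACG and 14.0% held AGGTCA. Of the 15 genes with the highest ratios 12 had a promoter in the table: 2 held TGACG and 4 held AGGTCA. Of the 15 genes with the lowest ratios 12 had one: none held TGACG and 4 held AGGTCA.

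Genes of heat production had the highest median of the 20 gene lists, relative to other adipocyte-like cells. Of 18 examined genes of the thermogenic list, which includes Ucp1 and Cidea, 17 were higher in the DMSO Ucp1 cells, against 6.58% of all genes examined, and none was lower. Their median log2 ratio was 2.51, against -0.04 over all genes examined. In the 71 cells it was 17 of 18 with a median of 2.72, against -0.15 over all genes, and in the inhibitor library 12 of 16 with a median of 2.29. The shares over all genes examined are the baseline for every list below. They were 6.58% higher and 4.2% lower for all DMSO Ucp1 cells, and 6.66% and 11.2% for the 71 cells. For the inhibitor library they were 6.8% and 9.08%. Ucp1 itself was at 1487 CPM in inhibitor Ucp1 cells and at 19.3 CPM in the other inhibitor adipocyte-like cells. In the DMSO library Ucp1 was at 1930 and 24.6 CPM in these sets. Cidea, a lipid droplet protein, was at 1370 against 144 CPM in the inhibitor library and at 1494 against 53.5 CPM in the DMSO library. The summed level in the other adipocyte-like cells was thus higher in the inhibitor library. However, 1 of these inhibitor cells held 66 Cidea UMIs and no Ucp1 UMI, so that level rests in good part on 1 cell.

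Cox7a1, the subunit of cytochrome c oxidase found in heart, muscle and brown fat, was at 1050 CPM in inhibitor Ucp1 cells, against 14.5 CPM in the other adipocyte-like cells there. In the DMSO library Cox7a1 was at 773 CPM in Ucp1 cells and 13.2 CPM in the others (ratio 58.3, 49.4 to 69.3). It was detected in 66 of the 71 cells, and in 70 of 523 other adipocyte-like cells with at least 1000 genes. Fabp3, a cytosolic fatty acid carrier of oxidative tissue, was at 89.4 against 1.93 CPM in the inhibitor library and at 228 against 3.94 CPM in the DMSO library (ratio 58.0, 42.7 to 80.5). Cox8b, the muscle and brown fat isoform of another cytochrome c oxidase subunit, was at 3024 against 610 CPM in the inhibitor library and at 2901 against 496 CPM in the DMSO library. Elovl3, an elongase of very long chain fatty acids that brown fat is known to induce in the cold, differed between libraries. It was at 7.06 CPM in inhibitor Ucp1 cells, with no UMI in the other inhibitor cells, and at 66.1 CPM in DMSO Ucp1 cells against 1.70 CPM in the others.

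**Figure D3:**
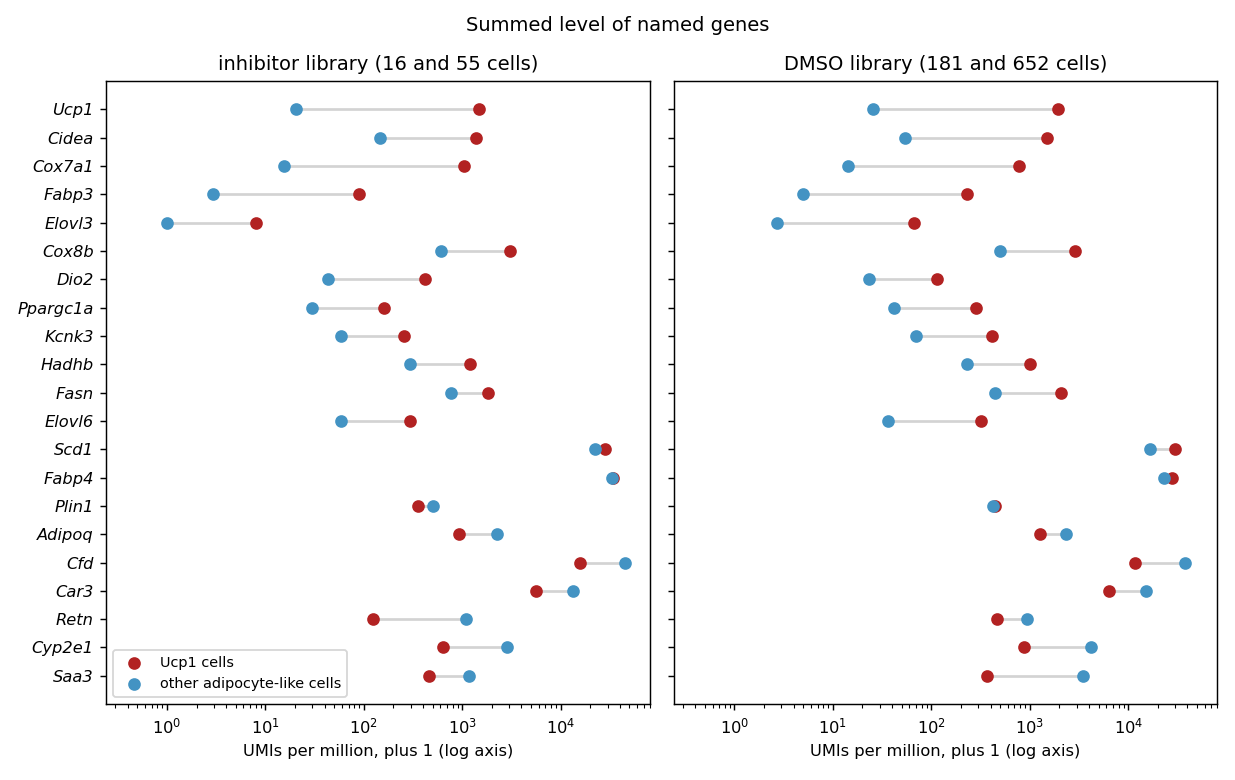
CPM plus 1 on a log axis for 21 genes in Ucp1 cells and in other adipocyte-like cells, with the inhibitor library on the left and the DMSO library on the right. Cox7a1 stands at 1050 against 14.5 CPM in the inhibitor library and 773 against 13.2 CPM in the DMSO library, whereas Cfd lies on the other side, at 15584 against 45268 CPM and 11812 against 37346 CPM.

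Further genes were among the 15 highest ratios. Pank1, the first enzyme of coenzyme A synthesis, was at 232 CPM in DMSO Ucp1 cells and 19.9 CPM in the others. Slc27a2, which activates long-chain fatty acids, was at 80.6 and 7.88 CPM in the same sets. Gmpr, a guanine nucleotide reductase, was at 56.1 and 2.51 CPM. Kcnk3, a potassium channel of brown adipocytes, was at 410 and 68.4 CPM, and Otop1, a proton channel, at 96.1 and 12.7 CPM. Clstn3, whose short adipose form is known to act at the lipid droplet of brown adipocytes, was at 145 and 22.7 CPM. Among inhibitor cells Kcnk3 was at 257 and 58.0 CPM, Clstn3 at 193 and 29.0 CPM, and Otop1 at 65.9 and 43.5 CPM, which is under the ratio of 2.

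For a few genes the value rested on the cells under the minimum. Selp, among the 15 highest, was at 89.8 CPM in all DMSO Ucp1 cells and 4.57 CPM in the others, but at 4.05 CPM in the 71 cells, and at 29.0 CPM (ratio 6.36) with the near-identical groups counted once. It had no UMI in the 16 inhibitor Ucp1 cells. Apod, also among the 15, was at 230 CPM in all DMSO Ucp1 cells and 38.2 CPM in the others; its ratio was 0.392 in the 71 cells and 5.56 with the groups counted once. Gpihbp1, of the fatty acid uptake list, was at 75.3 and 15.8 CPM; it was at 3.24 CPM in the 71 cells, and its ratio was 1.27 with the groups counted once.

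Nuclear genes of the respiratory chain stood higher, above all those of complexes III and IV. Of 22 nuclear genes of these complexes 17 were higher in DMSO Ucp1 cells and none lower (median log2 ratio 1.36), and 20 were higher in the 71 cells. Uqcrc1, a core subunit of complex III, was at 494 against 137 CPM, and Uqcrq, a small subunit, at 1540 against 486 CPM. Of 25 genes of complex I 9 were higher and none lower (median 0.92). Ndufv1, the subunit that binds NADH, was at 468 against 143 CPM. For complex I the count was 17 of 25 in the 71 cells, and 9 of 25 in the inhibitor library.

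Mitochondrially encoded RNA was also higher, and the limit of 20% on it bears on these values. It made up 11.7% of the summed UMIs of DMSO Ucp1 cells and 6.68% of those of the others. Of its 13 protein genes 3 were higher and none lower (median 0.77). mt-Cytb, cytochrome b of complex III, was at 36144 CPM in inhibitor Ucp1 cells against 12374 CPM in the others, and at 34075 against 13783 CPM in the DMSO library. ATP synthase and carrier genes stood closer to the rest, with 5 of 18 higher and 1 lower (median 0.46). Atp5b, the catalytic beta subunit, was at 2715 against 944 CPM. Atp5g1, one of the genes for the membrane ring subunit, was at 57.0 CPM in DMSO Ucp1 cells and at 181 CPM in the others (ratio 0.314), and at 94.1 against 207 CPM in the inhibitor library. Over all Ucp1 cells it was the 1 lower gene of this list in both libraries. In the 71 cells 6 of the 18 genes were higher and 3 lower, Atp5g1 among the lower (ratio 0.221). Brown fat of mice is known for a low content of ATP synthase, set by this subunit.

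Most genes of the citrate cycle and of mitochondrial fatty acid oxidation were higher in DMSO Ucp1 cells. Of 20 citrate cycle genes 17 were higher and none lower in DMSO Ucp1 cells (median 1.42), and 14 of 20 in the inhibitor library (median 1.37). Idh3a, a subunit of the NAD-dependent isocitrate dehydrogenase, was at 510 against 108 CPM in the DMSO library, and Sucla2, which makes succinate, at 467 against 98.8 CPM. Of 18 examined genes of mitochondrial fatty acid oxidation 15 were higher and none lower (median 1.34). Acadvl, the very long chain acyl-CoA dehydrogenase, was at 871 against 194 CPM, and Hadhb, a subunit of the trifunctional protein, at 997 against 231 CPM. The count was 8 of 17 in the inhibitor library (median 0.98). Cpt1b, a form of the entry enzyme, was at 0.63 CPM in DMSO Ucp1 cells and below the examined range.

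Several genes of fatty acid synthesis were higher alongside those of oxidation in the DMSO library. Of 18 genes 9 were higher and none lower (median 0.92). Fasn, fatty acid synthase, was at 2059 CPM in DMSO Ucp1 cells and 445 CPM in the others (ratio 4.63, 4.46 to 4.8). Elovl6, which lengthens the product of Fasn, was at 317 against 35.3 CPM, and Acly, which makes cytosolic acetyl-CoA from citrate, at 323 against 90.6 CPM. In the inhibitor library 4 of 18 were higher and 1 lower (median 0.31), and Fasn was at 1829 CPM in Ucp1 cells and 777 CPM in the others. Scd1, the desaturase given as a marker of these cells, was their most abundant gene of the list at 30065 CPM, but also stood at 16813 CPM in the other adipocyte-like cells (ratio 1.79). Its ratio was 2.14 in the 71 cells and 1.26 in the inhibitor library, so Scd1 marked adipocytes of both kinds.

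Genes of glycolysis lay in the same direction. Of 17 genes of glucose uptake and glycolysis 11 were higher and 1 was lower (median 1.06), and 7 were higher and none lower in the inhibitor library (median 0.93). Pkm, pyruvate kinase, was at 702 against 200 CPM in the DMSO library, Eno1, an enolase, at 527 against 151 CPM, and Ldhb, a lactate dehydrogenase subunit, at 355 against 104 CPM. The lower gene was Irs1, the insulin receptor substrate, at 37.8 CPM in DMSO Ucp1 cells and 87.0 CPM in the others (ratio 0.434). Pdk4, which keeps pyruvate from the citrate cycle, was also higher, at 543 against 237 CPM.

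Uptake and release of fatty acids differed less. Of 18 such genes 3 were higher and none lower in the DMSO library (median 0.41). In the inhibitor library 1 of 17 was higher and 1 lower (median 0.03). The 3 genes higher in DMSO were Gpihbp1, Plin5 and Acsl5. Plin5, which links droplets to mitochondria, was at 93.8 against 21.8 CPM, and Acsl5, an acyl-CoA synthetase, at 114 against 44.4 CPM. Peroxisomal genes were higher in 3 of 13 (median 0.37), with Acaa1b, a thiolase, at 236 against 68.7 CPM. Genes of ketone and branched chain amino acid use were higher in 1 of 13 and lower in 1 (median 0.16). Only the counts of this last list are near the shares over all genes examined, 6.58% higher and 4.2% lower. In the 71 cells 3 of its 13 genes were higher and 1 lower, and 4 of 13 peroxisomal genes were higher. The shares over all genes there were 6.66% and 11.2%. Acat1, acetoacetyl-CoA thiolase, was at 409 against 184 CPM. Of 6 genes of creatine and calcium cycling 1 was higher (median 0.32), namely Alpl, a phosphatase, at 32.1 against 10.9 CPM, and in the inhibitor library Alpl was at 7.06 against 15.5 CPM. None of 14 heat shock and unfolded protein genes was past the ratio of 2 in either direction in the DMSO library (median -0.23). In the inhibitor library 1 of 14 was lower (median -0.03).

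**Figure D4:**
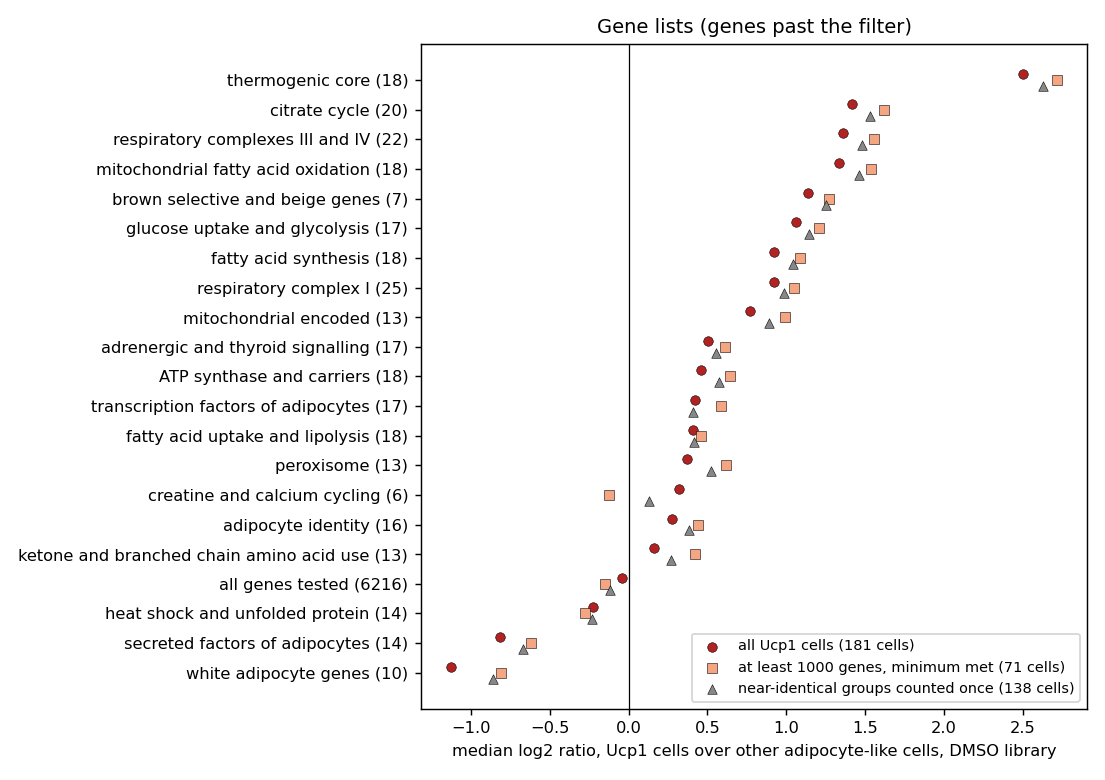
Median log2 ratio of Ucp1 cells over other adipocyte-like cells of the DMSO library for each gene list, from all 181 cells, from the 71 cells and from the 138 cells left when near-identical groups are counted once. The thermogenic list lies farthest right at 2.51, 2.72 and 2.63, and white adipocyte genes lie farthest left at -1.13, -0.81 and -0.86.

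Genes of the adrenergic and thyroid input were higher in part. Of 17 examined genes 6 were higher and none lower in the DMSO library (median 0.50). In the inhibitor library 5 of 16 were higher and 2 lower (median 0.54). Adcy3, an adenylyl cyclase, was at 129 against 25.2 CPM in the DMSO library. Dio2, which makes the active thyroid hormone inside the cell, was at 417 CPM in inhibitor Ucp1 cells against 42.5 CPM in the others, and at 114 against 22.0 CPM in the DMSO library. Adrb1, a beta-adrenergic receptor, was at 47.6 against 21.6 CPM in the DMSO library (ratio 2.20). Adrb3, the receptor of mature adipocytes, was at 141 CPM in DMSO Ucp1 cells and 161 CPM in the others, and at 11.8 against 99.6 CPM in the inhibitor library.

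Of 17 examined transcription factors 5 were higher and none lower in the DMSO library (median 0.42), and in the inhibitor library 3 of 15 were higher and 4 lower (median 0.00). Ppargc1a, the coactivator of mitochondrial biogenesis, was at 160 against 29.0 CPM in the inhibitor library and at 281 against 40.6 CPM in the DMSO library. Ppara, the fatty acid receptor that drives oxidation genes, was at 64.6 against 9.76 CPM in the DMSO library, and Esrra, an orphan nuclear receptor of oxidative metabolism, at 74.0 against 23.7 CPM. Other factors lay between the limits there: Pparg, the master regulator of adipocytes, was at 204 against 168 CPM and Cebpa at 286 against 344 CPM.

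Genes proposed to tell brown from beige cells gave little. Of 18 such genes in the files 7 could be examined in the DMSO library, of which 5 were higher and none lower (median 1.14). In the inhibitor library 8 could be examined, of which 4 were higher and 2 lower (median 1.02). Mpzl2, an adhesion protein, was at 28 against 6.98 CPM in the DMSO library. There P2rx5, a purine receptor on the surface of brown adipocytes, was at 26.5 against 9.31 CPM. Ebf2, an early factor of the brown lineage, was at 48.2 against 29.1 CPM in the DMSO library and at 9.41 against 25.1 CPM in the inhibitor library. Prdm16, a coregulator of brown fate, was at 11.7 against 13.2 CPM in the DMSO library, below the examined range. Zic1 and Myf5, which mark classical brown fat and its precursors, and Tmem26, a beige marker, had no UMI in either set of either library. Whether these genes were absent or too low to be detected was not tested.

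White adipocyte genes and secreted factors of adipocytes had medians below 0. Of 10 white adipocyte genes 6 were lower and none higher in DMSO Ucp1 cells (median -1.13), and 4 were lower in the 71 cells (median -0.81). For the inhibitor library 5 of 10 were lower and 1 higher (median -1.07). Car3, a carbonic anhydrase abundant in white fat, was at 5629 CPM in inhibitor Ucp1 cells against 13202 CPM in the others, and at 6367 against 15122 CPM in the DMSO library. Its DMSO ratio was 0.421 over all Ucp1 cells and 0.518 in the 71 cells. Ccdc80, a secreted matrix protein, was at 130 against 460 CPM in the DMSO library, and Slc7a10, a neutral amino acid carrier, at 19.5 against 59.3 CPM. Of 14 examined secreted factors 5 were lower and none higher in the DMSO library (median -0.82). In the 71 cells 4 of these factors were lower and 1 higher (median -0.62).

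Cfd, the protease adipsin, was at 15584 CPM in inhibitor Ucp1 cells and 45268 CPM in the others, and at 11812 and 37346 CPM in the DMSO library (ratio 0.316). Rbp4, the retinol carrier, was at 52.0 against 209 CPM in the DMSO library. Retn, resistin, was at 122 against 1085 CPM in the inhibitor library and at 467 against 944 CPM in the DMSO library, close to the limit with a ratio of 0.495. Adipoq, adiponectin, was at 1266 against 2318 CPM in the DMSO library (ratio 0.546). Adipoq helped to choose the other adipocyte-like cells, and not the Ucp1 cells, so that this difference follows in part from the rules. Plin1, the main droplet coat protein, was at 438 against 419 CPM and Fabp4, the adipocyte fatty acid carrier, at 27852 against 23041 CPM. Over the 16 genes of adipocyte identity 1 was higher and 2 lower (median 0.27), and the remaining 13 lay between the limits.

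The lowest ratios were those of acute phase and detoxifying genes. Saa3, an inflammatory serum amyloid A of adipocytes and macrophages, was at 457 CPM in inhibitor Ucp1 cells against 1180 CPM in the others, and at 363 against 3487 CPM in the DMSO library. Saa1 and Saa2 were at 3.78 against 339 CPM and 3.15 against 415 CPM in the DMSO library, but they are nearly identical copies and the split of reads between them is uncertain. Cyp2f2, a cytochrome P450 that oxidises small aromatic compounds, was at 179 against 1122 CPM in the inhibitor library and at 54.2 against 905 CPM in the DMSO library. Cyp2e1, the P450 of ethanol, was at 865 against 4214 CPM in the DMSO library. Trf, the iron carrier transferrin, was at 56.4 against 536 CPM, and Pon1, a paraoxonase, at 24.6 against 254 CPM. Gas6, a ligand of TAM receptors, was at 169 against 1197 CPM. Spp1, osteopontin, was at 38.1 against 292 CPM in the DMSO library, and at 9.41 against 6.77 CPM in the inhibitor library, where it was near the lower limit of measurement.

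Single cells of the DMSO library spread widely. Among the 71 cells Ucp1 ran over 72.7 to 10522 CPM with a median of 1112 CPM, and among 523 other adipocyte-like cells with at least 1000 genes over 0 to 468 CPM with a median of 0. Since Ucp1 and Cidea chose the cells, the separation of the sets in these genes follows from the rule. Cox8b had a median of 3043 CPM in the 71 cells and 134 CPM in the 523 cells, and the ranges overlapped, 0 to 7998 and 0 to 4032 CPM. Cidea, which was part of the rule, was found in 67 of the 71 cells. Elovl3 was found in 28 and Fabp3 in 42 of them, so these 2 genes were not detected in many Ucp1 cells at this depth.

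**Figure D5:**
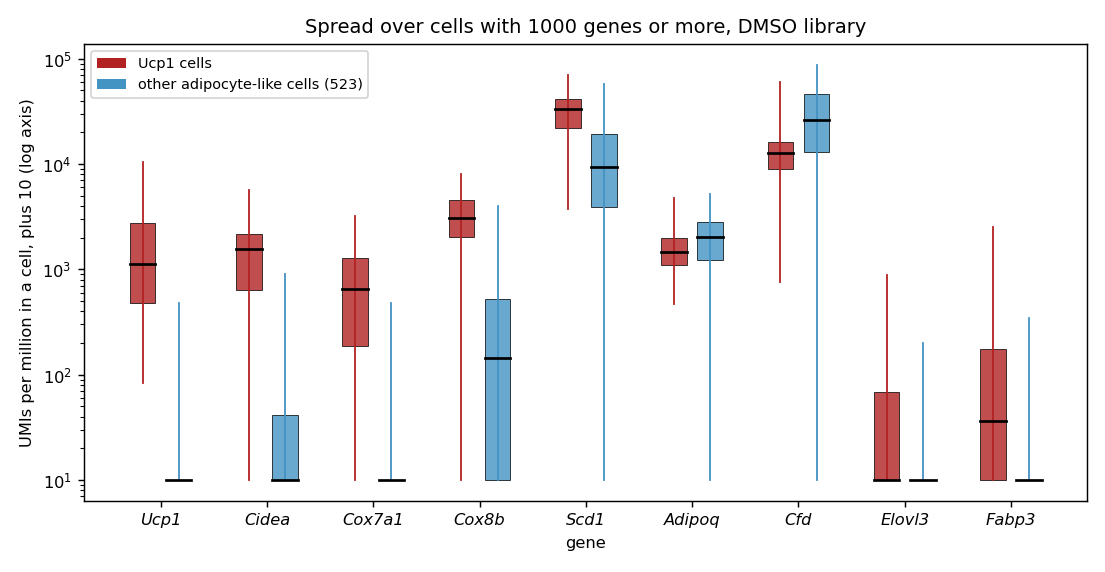
Range (thin line), quartiles (box) and median (black bar) of single-cell CPM plus 10, on a log axis, for 9 genes in the 71 DMSO Ucp1 cells and the 523 other adipocyte-like cells with at least 1000 genes. The median of Cfd is 12759 CPM in Ucp1 cells and 26058 CPM in the others, with overlapping ranges. Ucp1, Cidea and Adipoq helped to choose the cells, so their values follow in part from the rules.

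Within the 71 cells the correlation with Ucp1 differed between genes. As a description over these cells, which share 1 library, Spearman's correlation with the share of Ucp1 was 0.71 for Cox7a1, 0.62 for Fabp3, 0.60 for Cox8b and 0.48 for Fasn. It was 0.40 for Elovl3, 0.38 for Dio2 and 0.32 for Ppargc1a, and 0.60 for Cidea, which was part of the rule. It was -0.46 for Car3, -0.52 for Adipoq and -0.55 for Cyp2e1. It was 0.06 for the mitochondrial percentage and 0.03 for total UMIs. All shares in 1 cell share its total, so the values are not independent. The 71 cells also included near-identical groups of 2 cells and 1 cell of the group of 12, and each cell was counted separately.

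The same 71 cells were also divided by their Ucp1 share into groups of 24, 24 and 23 cells, low to high, with Ucp1 at 324, 1368 and 4507 CPM. The cells under the minimum, which hold most of the large near-identical groups, were left out here, and the smaller barcodes because over all 181 cells the highest group had a median of 769.5 UMIs and the lowest 22067. Smaller near-identical groups remained among the 71 cells, with each cell counted separately. Between the highest and the lowest group 341 of 5836 genes were higher (5.84%) and 398 lower (6.82%). Cox7a1 was at 296, 929 and 1444 CPM from the lowest to the highest group, Fasn at 969, 2578 and 3666 CPM, and Elovl6 at 119, 295 and 635 CPM. Gmpr was at 2.56, 8.95 and 145 CPM. In the opposite direction Cyp2e1 was at 1912, 992 and 387 CPM. Dcn was at 437, 290 and 134 CPM from the lowest to the highest group, so fibroblast RNA moved with this division, and its part in the result was not tested.

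Levels in Ucp1 cells also differed between the libraries for some genes, with no replicate behind any of these differences. Dio2 was higher in the inhibitor Ucp1 cells, at 417 CPM against 114 CPM in DMSO Ucp1 cells (ratio 3.65, 3.04 to 4.39), and at 431 against 127 CPM in the 14 and 71 cells that met the adipocyte minimum. Dio2 in the other adipocyte-like cells stood at 42.5 CPM with the inhibitor and 22.0 CPM with DMSO. Ppargc1a was lower in inhibitor Ucp1 cells, at 160 against 281 CPM (ratio 0.569, 0.438 to 0.729), and Fabp3 at 89.4 against 228 CPM (ratio 0.392, 0.275 to 0.543). Elovl3 was lower too, at 7.06 against 66.1 CPM (ratio 0.107, 0.0218 to 0.316). Cox7a1 was at 1050 against 773 CPM and Ucp1 at 1487 against 1930 CPM, both within a ratio of 2.

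Retn was at 122 CPM in inhibitor Ucp1 cells and 467 CPM in DMSO Ucp1 cells (ratio 0.262), while the other adipocyte-like cells had 1085 CPM with the inhibitor and 944 CPM with DMSO. Hspa8, a constitutive chaperone, was at 2182 CPM in inhibitor Ucp1 cells and 909 CPM in DMSO Ucp1 cells (ratio 2.40), and at 1728 and 1149 CPM in the other adipocyte-like cells. Myh11, smooth muscle myosin, also differed, at 374 CPM in inhibitor Ucp1 cells and 96.1 CPM in DMSO Ucp1 cells, and Lyz2, a macrophage lysozyme, at 16.5 and 112 CPM. In the other adipocyte-like cells Myh11 was at 232 CPM in the inhibitor library and 85.9 CPM in the DMSO library, and Lyz2 at 19.3 and 184 CPM, so RNA of other cell types moved with the library in both sets. Its part in the differences was not tested. Apoe, deleted in these mice per the labels, gave 167 CPM in inhibitor Ucp1 cells and 409 CPM in DMSO Ucp1 cells; a 3′ tag does not test the deletion.

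Markers of other cell types were read in the DMSO Ucp1 cells as a whole. At least 2 UMIs of the endothelial list without Fabp4 were found in 37 of 181 Ucp1 cells (20.4%) and in 85 of 652 other adipocyte-like cells (13%), and the list summed to 331 CPM in the Ucp1 cells and 86.1 CPM in the others. The fibroblast list summed to 2399 CPM in Ucp1 cells and 3124 CPM in the others, the smooth muscle list to 1287 and 921 CPM, and the macrophage list to 244 and 359 CPM. These sums differed between kinds of Ucp1 cell. In the 71 cells the endothelial list summed to 35.7 CPM, against 82.3 CPM in other adipocyte-like cells with at least 1000 genes, and the smooth muscle list to 603 against 910 CPM, so for both the direction turned. The fibroblast list summed to 887 against 3053 CPM and the macrophage list to 143 against 343 CPM in the same sets. In the 44 cells under the minimum the endothelial list stood at 1449 CPM, the smooth muscle list at 3752 CPM, the fibroblast list at 7984 CPM and the macrophage list at 506 CPM. With the near-identical groups counted once the endothelial list was at 97.2 CPM and the smooth muscle list at 620 CPM. No UMI of any of the 4 B cell markers was found in Ucp1 cells. The 5 T cell markers summed to 2.20 CPM in Ucp1 cells and 2.42 CPM in the others, and 2 of them, Cd3d and Cd2, were at 0 in Ucp1 cells. Doublets, called at the score threshold of 0.214 set on the inhibitor library, were 0 of 16 inhibitor and 1 of 181 DMSO Ucp1 cells.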

How the data were processed

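Gene by cell matrices of counts, raw UMI counts per gene and barcode, were deposited by the authors for both libraries. Per the file headers Cell Ranger 6.1.1 made them; the submitters' processing notes name the build GRCm38 and, without a step, Seurat, and the sources used here give no parameters. The libraries were made with the 10x 3′ kit per the labels' protocols.

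UMIs were summed over each set of cells and divided by the sets' totals to give counts per 1000000 UMIs (CPM). Ratios are Ucp1 cells over other adipocyte-like cells of the same library, and log2 ratios were taken after adding 5 CPM, which understates the difference for low genes. With 1 library per group there was no test. The members, lists and alternatives were chosen with earlier results of these data known. Genes named are those of the rules, the 15 highest and 15 lowest ratios among genes with at least 50 CPM and 50 UMIs (leaving out mitochondrial, ribosomal protein, haemoglobin, immunoglobulin, T cell receptor and Gm or Rik genes), and up to 4 called genes and the most abundant gene of each list; genes named beyond these were chosen after their values were seen. Where 1 symbol had more than 1 row, the lowest gene ID was used. Intervals are exact (95%). Doublets were called with Scrublet in scanpy 1.11.5 (6% expected, seed 0); the DMSO library's own threshold called none, so the inhibitor library's was used for both and the calls in DMSO are of limited use. On simulated counts (5876 genes examined) all 100 genes changed 4-fold were called and 0% of unchanged ones. The simulation held counting error only, with no spread between cells, and a change well past the ratio of 2. It therefore checks the calculation and gives no error rate for the genes called. The comparison with the inhibitor library, the split into cells over and under the adipocyte minimum and the counting of near-identical groups once were added after seeing the data. Python 3.11.15, numpy 2.4.6, scipy 1.17.1 and pandas 2.3.3 were used. A few genes met by the rule for named genes are not reported here.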

Additional observations from a re-analysis of the deposited data

Results flagged for a closer look

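Hspa8, Atp2a2 and Cxcl14 lay on opposite sides of 1 in the libraries, and the difference between the libraries was not tested. The ratio of Ucp1 cells over other adipocyte-like cells for Hspa8 was 1.26 in the inhibitor library, against 0.791 in the DMSO library. For Atp2a2, the calcium pump of the endoplasmic reticulum, it was 1.41 in the inhibitor library, against 0.882 in the DMSO library. For Cxcl14, a chemokine that brown fat is known to secrete, it was 1.84 in the inhibitor library, from 58.8 against 31.9 CPM, and 0.339 in the DMSO library, from 46.6 against 138 CPM.

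A further 38 DMSO barcodes met the Ucp1 rule and were removed by the mitochondrial limit, so that the comparisons do not use them. They held Ucp1 at 4040 CPM and Cox8b at 4887 CPM, above the sums over all kept DMSO Ucp1 cells, 1930 and 2901 CPM. The 66 kept cells with under 1000 genes held Ucp1 at 6018 CPM.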

How the results depend on the processing

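The share of Ucp1 cells in DMSO (2.09%) was 1.12% with mitochondrial UMIs at most 10%, 1.56% with at least 1000 genes, 1.37% with Ucp1 plus Cidea at 0.2% or more, 1.40% with 5 or more Ucp1 UMIs, 1.30% with the adipocyte minimum met and 1.6% with near-identical barcodes counted once. The 409 higher genes became 795 with mitochondrial UMIs at most 10%, 668 against other adipocyte-like cells at 0.5% or more, 694 with means over cells and 2359 with no filter. The 261 lower genes became 396 with no mitochondrial limit, 519 with Ucp1 plus Cidea at 0.2%, 664 with the adipocyte minimum met, 681 with at least 1000 genes as well, 473 with near-identical barcodes counted once, 567 with means over cells, 1376 with no filter and 549 in the inhibitor library. Lists with a median log2 ratio of 1 or more in size fell to 4, against 7, with mitochondrial UMIs at most 10%. Over all Ucp1 cells the highest of 3 Ucp1 groups had 472 genes higher and 1065 lower than the lowest, with 2 groups 134 and 422, with at least 1000 genes 268 and 327, and with the adipocyte minimum met as well 341 and 398. Marker lists of other cells seen in over 50% of Ucp1 cells were 4 at 2 UMIs, 2 at 4 UMIs, and 3 at 2 UMIs with Fabp4 left out of the endothelial list. The log2 ratio reversed for Apod (-0.96 with the adipocyte minimum met, -1.11 with at least 1000 genes as well), Spp1 (0.68) and Cxcl14 (1.45) against other adipocyte-like cells at 0.5%, and Cxcl14 in the inhibitor library (0.79). The cause was not tested. Other scalings moved the median of all genes by 0.05 and 0.08. No paired analysis was possible because each group is 1 library, and for the same reason no replicate could be left out. Alternatives with the inhibitor library, near-identical barcodes or 1000 genes beside the minimum were chosen after seeing the data.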
